A study of Mus musculus with 40 samples.

Results

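Liver gene expression was compared between ovariectomized mice given estradiol and ovariectomized mice given dihydrotestosterone (DHT). The 10 livers were chosen by the treatment in their labels, 5 with an estradiol pellet (animals 33 to 37) and 5 with a DHT pellet (animals 50 to 54), out of 40 livers in the series. All 10 animals were C57BL/6J females, an inbred laboratory strain. They ate chow with a fat content of 4%, were ovariectomized at 8 weeks of age, received a pellet at 12 weeks and were killed at 14 weeks, having fasted for 12 h. Per the labels, estradiol was dosed at 0.5 mg per pellet for a plasma level of 300 pg/ml, and DHT at 5 mg per pellet for 1 to 2 ng/ml, each with release over 21 days. The doses of the hormones differ, so the comparison is between these pellets and not between matched doses. Other groups of 5 serve only for reference: ovariectomized mice with a placebo pellet, castrated males with placebo, estradiol or DHT on the same schedule, and intact females and males, for which the labels do not say whether a pellet was placed. Each liver was read on 1 array of 23574 probes as a ratio to a common liver pool, and each level given here is a log2 ratio to that pool. A difference is a log2 difference, estradiol minus DHT unless stated, with the SE of a linear model in limma. That SE rests on a spread pooled over all groups of the series, not on these 10 livers alone. A probe or gene is called where its Benjamini-Hochberg adjusted p over all probes is under 0.05.

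Estradiol acts through estrogen receptors and DHT, an androgen that cannot be converted to estrogen, through the androgen receptor. Male and female rodent livers express different sets of cytochrome P450 enzymes, sulfotransferases and organic anion carriers. Much of that difference is known to follow the pattern of growth hormone release from the pituitary, pulsatile in males and more continuous in females, which reaches hepatocyte genes through the transcription factor STAT5. Gonadal steroids set that release pattern and also act on the liver directly.

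The sex given in the labels was checked with Y-linked genes, which cannot check the pellet. The log2 ratio of Eif2s3y, a subunit of a translation initiation factor, lay between -6.07 and -5.20 in the estradiol group and between -5.84 and -4.64 in the DHT group, against 0.35 to 1.44 in males. Kdm5d, a histone demethylase on the Y chromosome, lay between -4.03 and -1.40 in the 10 livers and between 0.23 and 1.43 in males. Of 11 hepatocyte markers 6 were measured, and 0 of them were called. The mean log2 ratio of those 6 markers ran from -0.25 to 0.05 under estradiol and from -0.22 to 0.05 under DHT. The livers of animals 33, 34 and 53 stood apart from their own group in the values of all probes. The arrays of animals 35, 36 and 37 correlated with each other at Pearson's r of 0.396 to 0.663, while animals 33 and 34 correlated with those 3 at -0.283 to 0.193 and with each other at 0.363. Among the DHT animals, number 53 correlated with the others at 0.0525 to 0.317, against 0.363 to 0.634 between the other 4. For part of the genes and lists, values without these animals are also given.

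Estradiol and DHT livers differed at 893 of 23574 probes (3.79%), of which 519 were higher under estradiol (2.2%) and 374 were lower (1.59%). In named genes the count was 533 of 10842 (4.92%), with 340 higher under estradiol (3.14%) and 193 lower (1.78%). Among the called genes 99 had an estimated difference of at least 2-fold, 72 higher and 27 lower under estradiol, and a test against a fold of 1.5 called 7 probes. The 5 estradiol livers did not overlap with the 5 DHT livers in 3.51% of all probes and 4.07% of named genes. Genes that were also called made up 2.3% of named genes, 1.27% higher and 1.02% lower under estradiol. Among the 15 largest differences without overlap on each side were Cyp17a1, Cxcl13, Corin, Mmd2, Cyp2c40, Dntt, Spon1, Socs2, Ly6d, Cux2, Mtmr11, Ptgds, Miox and Rac2 on the side of estradiol. On the side of DHT they were Hsd3b5, Elovl3, Nat8, Cyp4a12a, Car1, Hsd3b2, Fitm1, Clec2h, Car3, Nudt7, Bmf, Upp2, Plin4, Slco1a1 and Sucnr1. Upp2 differed by -1.30, and a second probe of that gene gave -0.06. Leaving out 1 animal at a time gave between 281 called probes (without animal 36) and 1523 (without animal 34), and leaving out animals 33 and 34 together gave 1982. An index of clock gene expression also differed between the groups, and with it as a covariate 170 probes were called; its values are given with the clock genes.

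The largest differences were in genes known to be expressed at different levels in female and male liver. On a list of female-biased liver genes, 11 of 25 measured members were higher under estradiol and 0 were lower, with a median difference of 1.07 against 0.0024 over all named genes. On a list of male-biased liver genes, 10 of 21 measured members were lower under estradiol and 0 were higher, with a median difference of -0.70. Of all named genes 3.14% were called higher and 1.78% lower. When the fit held no other groups, 3 female-biased and 8 male-biased genes were called, and in the test against a fold of 1.5 the counts were 2 and 1. Both lists were written with earlier results of these data known. Without animals 33, 34 and 53 the counts were 15 higher of 25 and 10 lower of 21, where 6.74% of named genes were called higher and 4.03% lower, and the male-biased gene Cyp7b1 was then called higher.

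Sult3a1, a sulfotransferase of female mouse liver, showed the largest difference of all named genes. Its log2 ratio was 1.18, 0.28, 1.63, 0.58 and 1.74 in estradiol animals 33 to 37 and -4.87, -3.89, -4.28, 0.95 and -4.83 in DHT animals 50 to 54. Only DHT animal 53 lay within the range of the estradiol group. The difference was 4.47 ± 0.64 (22.1-fold, adjusted p = 0.000171), and without animal 53 it was 5.55. A second probe of the gene gave 1.54 with the same adjusted p. A1bg, which encodes a plasma glycoprotein of the immunoglobulin superfamily, had log2 ratios of 1.68, -0.81, 0.87, -0.58 and 0.69 under estradiol and -3.10, -4.38, -4.01, 0.51 and -5.36 under DHT. Again DHT animal 53 was the exception, and the difference was 3.64 ± 0.77 (12.5-fold, adjusted p = 0.0048), or 4.59 without animal 53. Cyp17a1 is the 17-hydroxylase and 17,20-lyase of steroid synthesis. Its log2 ratio was 1.21, 0.98, 1.15, 1.16 and 1.22 under estradiol and -2.55, -2.10, -2.29, 0.13 and -2.56 under DHT, so the groups did not overlap with animal 53 included. The estradiol group of Cyp17a1 had an SD of 0.10, and the difference was 3.02 ± 0.44 (8.09-fold, adjusted p = 0.000218), or 3.52 without animal 53.

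The other 8 called female-biased genes encode enzymes, carriers and the transcription factor Cux2. Slc22a26, an organic anion carrier, lay between 0.06 and 0.72 under estradiol and between -3.31 and -2.75 in 4 of the DHT livers, with animal 53 at 0.44, and differed by 2.65 ± 0.56 (adjusted p = 0.00496), or 3.34 without that animal. Its relative Slc22a27 differed by 1.64 ± 0.37 (adjusted p = 0.009). Hao2, a peroxisomal hydroxyacid oxidase, lay between -0.66 and 0.91 under estradiol and between -4.20 and -3.39 under DHT, apart from 1.36 in animal 53, and differed by 2.65 ± 0.61 (adjusted p = 0.00996), or 3.68 without it. The sulfotransferase Sult2a1, which conjugates hydroxysteroids and bile acids, differed by 2.42 ± 0.61 (adjusted p = 0.0171). Among cytochromes P450 the differences were 2.91 ± 0.72 in Cyp2b13, 2.24 ± 0.61 in Cyp2b9 and 1.97 ± 0.34 in Cyp2c40. Cux2, a homeodomain repressor of male-biased genes in female liver, was at 0.42 to 1.19 under estradiol and at -1.26 to -0.06 under DHT, a difference of 1.54 ± 0.31 (adjusted p = 0.00324). Cyp2b9 was called in 3 of the 10 fits without a single animal, Sult2a1 in 6 and Cyp2b13 in 7, and the other 8 genes in 10 of 10. Further probes of these genes gave smaller differences, 0.44 in Cyp2b13, 0.68 in Sult2a1, 0.16 in Cyp2b9 and 1.23, 0.47 and -0.09 in Cyp2c40. In all 11 called genes animal 53 was the DHT liver nearest to the estradiol group. The 14 members not called include Cyp3a16, a steroid hydroxylase of female liver, at 1.37 ± 0.43 (adjusted p = 0.0665), and Cyp3a41a at -0.33 ± 0.31 (adjusted p = 0.706).

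Hsd3b5 was the gene furthest below its DHT level under estradiol. It encodes a 3-ketosteroid reductase of male liver that inactivates steroids, including DHT. Its log2 ratio was -3.98, -4.37, -4.07, -4.52 and -4.16 under estradiol and 0.10, 1.38, -0.16, -3.87 and -0.22 under DHT. The groups did not overlap, but DHT animal 53 lay next to the estradiol livers. The difference was -3.67 ± 0.73 (12.7-fold, adjusted p = 0.00288), or -4.49 without animal 53, and a second probe of the gene gave -0.04. Cyp2d9, the testosterone 16-alpha-hydroxylase of male liver, was at -3.45, -3.26, -3.55, -3.03 and -2.88 under estradiol and at -0.12, 0.53, 0.34, -3.44 and 0.08 under DHT. Animal 53 lay inside the estradiol range. The difference was -2.71 ± 0.42 (adjusted p = 0.000334) and, without animal 53, -3.44. Elovl3 encodes an elongase of very long chain fatty acids and was at -2.31, -2.87, -3.14, -2.77 and -2.53 under estradiol and at 0.45, 0.37, -0.27, -1.92 and 0.20 under DHT. Its difference was -2.49 ± 0.41 (adjusted p = 0.000604), with no overlap between the groups. Nat8, an N-acetyltransferase, lay between -2.96 and -2.60 under estradiol and between -2.39 and -0.18 under DHT, and differed by -2.02 ± 0.34 (adjusted p = 0.000697). Cyp4a12a, an arachidonic acid hydroxylase, lay between -1.89 and -1.56 under estradiol and between -1.40 and 0.60 under DHT, and differed by -1.77 ± 0.35 (adjusted p = 0.00288).

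The remaining called male-biased genes differed by less. Hsd3b2, a hydroxysteroid dehydrogenase, was at -1.13 to -0.78 under estradiol and 0.28 to 1.02 under DHT, a difference of -1.56 ± 0.24 (adjusted p = 0.000275). In this gene animal 53, at 0.35, lay with the other DHT livers. Fitm1, a protein of lipid droplet formation, differed by -1.45 ± 0.29, Slco1a1, an organic anion transporter, by -1.28 ± 0.27, Nox4, an NADPH oxidase, by -0.84 ± 0.18 and C9, a component of the membrane attack complex, by -1.08 ± 0.32. The adjusted p of these 4 ran from 0.00288 for Fitm1 to 0.0484 for C9, and C9 was called in 2 of the 10 fits without a single animal. Cyp7b1, the oxysterol 7-alpha-hydroxylase and a male-biased gene, went the other way in part of the estradiol group. Its log2 ratio was -2.57 and -2.92 in animals 33 and 34, then 1.35, 0.84 and 1.31 in animals 35 to 37, against -1.44, -1.44, -1.60, -2.63 and -1.79 under DHT. The difference of 1.38 ± 0.68 was not called (adjusted p = 0.331), and without animals 33 and 34 it was 2.95 (adjusted p = 0.001).

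**Figure D1:**
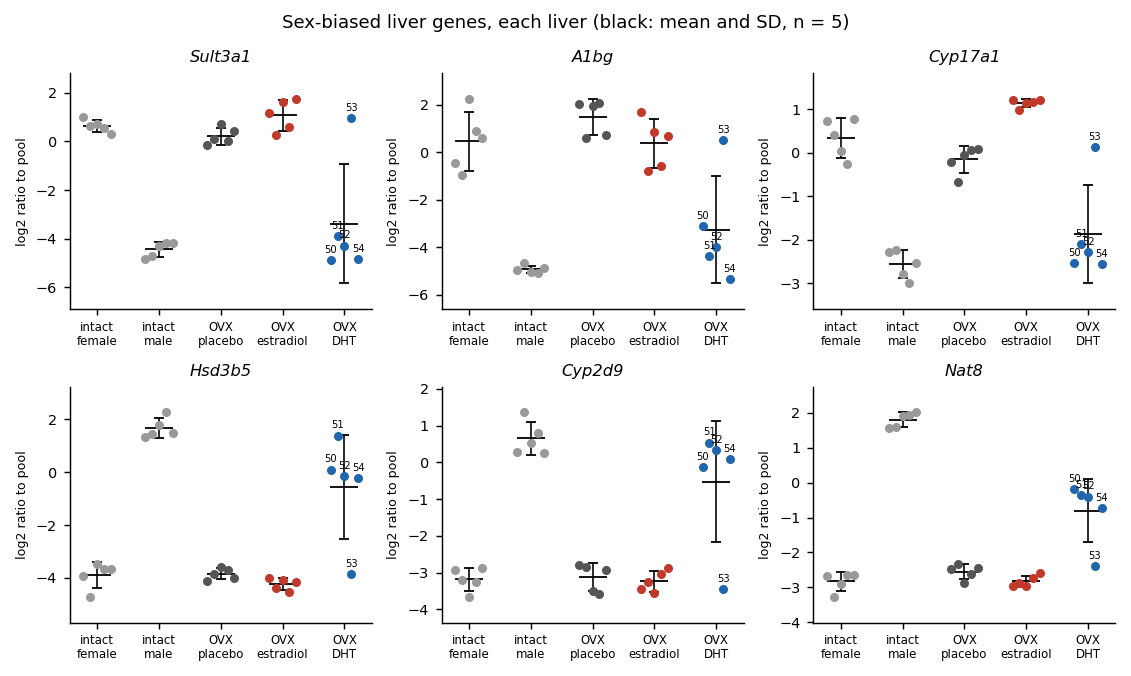
Log2 ratio to the pool (vertical axis) of 3 female-biased genes in the upper row and 3 male-biased genes in the lower row, for each of 5 groups of 5 livers; points are livers, the black bar is the mean with its SD, and numbers name the DHT animals. In Sult3a1, A1bg and Cyp17a1 the DHT livers other than animal 53 lie below all estradiol livers, on the side of the intact males. In Hsd3b5, Cyp2d9 and Nat8 they lie above all estradiol livers, in the direction of the intact males. In Nat8 they remain below every intact male.

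The levels of the placebo and intact groups place these differences on a scale. Mean log2 ratios of Sult3a1 were 0.22 ± 0.35 (SD, n = 5) with placebo, 1.08 ± 0.64 with estradiol and -3.38 ± 2.46 with DHT, against 0.65 ± 0.25 in intact females and -4.43 ± 0.31 in intact males. Hsd3b5 stood at -3.84 ± 0.21 with placebo, -4.22 ± 0.22 with estradiol and -0.55 ± 1.96 with DHT, against -3.89 ± 0.49 in intact females and 1.66 ± 0.38 in intact males. In both genes the DHT group was the one apart from placebo. Against placebo, DHT lowered 10 of the 25 female-biased genes (1.27% of named genes were called in that comparison, 0.572% lower) and raised 10 of the 21 male-biased genes (0.701% called higher). Estradiol against placebo called 0 genes of either list by limma, with 7 of 25 and 6 of 21 at an unadjusted p under 0.05, while 0.885% of named genes were called. Cyp17a1 stood at 1.14 ± 0.10 with estradiol and -0.15 ± 0.32 with placebo, a difference of 1.29 that was not called (adjusted p = 0.18). The placebo animals are shared by these comparisons, and each shares 1 arm with the comparison of estradiol and DHT, so their values are set side by side only.

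Averaged over the list, the female-biased genes stood at a mean log2 ratio of 0.07 to 0.63 in the estradiol livers and at -1.48 to -1.41 in DHT animals 50, 51, 52 and 54, with animal 53 at 0.49. Placebo livers lay between 0.10 and 0.61, intact females between 0.17 and 0.35 and intact males between -2.06 and -1.85. For the male-biased list, estradiol livers lay between -1.47 and -0.91, DHT livers between -0.05 and 0.14 with animal 53 at -1.21, placebo livers between -1.34 and -1.19 and intact males between 0.63 and 1.09. The 4 DHT livers lay between the intact sexes on both lists, and animal 53 lay inside the range of the placebo group on both.

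To show what the start sites of these genes carry, the 150 bases before the annotated start are printed for 3 called female-biased genes and for 2 male-biased genes with large differences, from RefSeq (GRCm38.p6), 5′ to 3′ on the strand of the gene. Capitals mark the STAT element TTCNNNGAA, a palindrome that reads the same on both strands and is the form bound by STAT5; Hsd3b5 and Cyp2d9 have none in these bases and are in lower case throughout.
Sult3a1 (chr10:33857572-33857721, plus strand): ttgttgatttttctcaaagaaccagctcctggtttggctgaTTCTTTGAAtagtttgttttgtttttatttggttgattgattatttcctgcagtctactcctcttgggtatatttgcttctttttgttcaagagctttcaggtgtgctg
A1bg (chr15:60921271-60921420, minus strand): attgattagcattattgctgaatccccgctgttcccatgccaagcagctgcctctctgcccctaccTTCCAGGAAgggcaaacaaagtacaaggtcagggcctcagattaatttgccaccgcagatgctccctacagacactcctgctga
Slc22a26 (chr19:7802668-7802817, minus strand): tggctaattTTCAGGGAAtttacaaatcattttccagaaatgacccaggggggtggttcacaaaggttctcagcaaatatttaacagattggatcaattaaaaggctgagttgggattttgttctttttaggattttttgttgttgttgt
Hsd3b5 (chr3:98645535-98645684, minus strand): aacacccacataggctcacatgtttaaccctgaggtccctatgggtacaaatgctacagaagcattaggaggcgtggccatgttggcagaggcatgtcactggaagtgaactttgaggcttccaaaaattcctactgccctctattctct
Cyp2d9 (chr15:82452227-82452376, plus strand): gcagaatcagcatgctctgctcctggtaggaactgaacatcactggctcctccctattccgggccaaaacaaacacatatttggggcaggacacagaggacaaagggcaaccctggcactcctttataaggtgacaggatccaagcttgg

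The match lies 109 bases before the start in Sult3a1, 84 in A1bg and 141 in Slc22a26. These 3 were chosen after the values and the matches were seen. In windows of 300 bases, from 250 before the start to 50 after it, 8611 named genes had a sequence. The STAT element was in 726 of them (8.43%), in 23 of 260 genes called higher under estradiol (8.85%) and in 10 of 160 called lower (6.25%). Among the called sex-biased genes it was in 3 of 9 female-biased and in 1 of 8 male-biased genes, Nox4. The palindromic estrogen response element was in 3 of the 8611 windows and in 0 of those of called genes, and the palindromic androgen response element was in 1 and 0. The nuclear receptor core AGGTCA, searched on both strands, was in 16.1% of all windows, 21.2% of those higher under estradiol and 21.9% of those lower. A match describes these letters only, and sequence outside the window was not searched.

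Part of the called probes were also called between intact females and intact males, animals that enter the comparison of the pellets only through the shared estimate of the spread. Between the intact sexes 2048 probes were called (8.69%; 3.33% higher and 5.36% lower in females), and 316 of these were also called between estradiol and DHT. That is 35.4% of the 893 and 15.4% of the 2048. In all 316 the estradiol minus DHT difference had the sign of female minus male, 105 higher and 211 lower. Bmf, a pro-apoptotic gene outside the list of sex-biased genes, differed by -1.38 ± 0.25 between estradiol and DHT and by -2.35 between intact females and males. Of named genes 9.55% were called between the intact sexes, 4.03% higher and 5.52% lower in females. Of the 15 genes lowest under estradiol, 10 were called lower in intact females, and of the 15 highest, 4 were called higher.

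**Figure D2:**
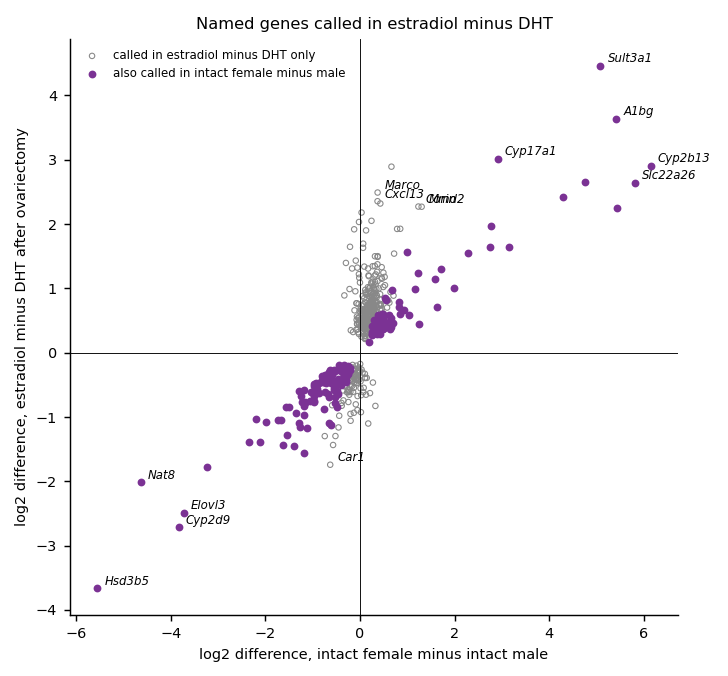
Each point is a named gene called between estradiol and DHT after ovariectomy, with its log2 difference between intact females and males on the horizontal axis and its log2 difference between estradiol and DHT on the vertical axis; filled points were called in both. All filled points have the same sign on both axes. Marco (0.37), Cxcl13 (0.37), Mmd2 (1.30), Corin (1.23) and Car1 (-0.63) on the horizontal axis are open points, not called between the intact sexes.

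A second group of genes was high in estradiol animals 35, 36 and 37 and lower in animals 33 and 34. Castrated males with estradiol were also uneven in Mmd2, Corin and Dntt, with values given below. Mmd2, a membrane protein of the progestin and adipoQ receptor family, was at -0.70, -0.77, 2.10, 1.89 and 2.31 in animals 33 to 37 and at -0.97, -1.06, -1.65, -1.14 and -1.70 in the DHT animals. The groups did not overlap, and the difference was 2.27 ± 0.45 (adjusted p = 0.00289), or 3.40 without animals 33 and 34. Corin, the protease that activates atrial natriuretic peptide, was at -0.12, -0.51, 2.44, 1.61 and 1.80 against -1.51, -1.76, -1.04, -0.80 and -1.02, a difference of 2.27 ± 0.47 (adjusted p = 0.00374), or 3.18 without animals 33 and 34. Dntt, the template-free DNA polymerase of lymphocytes, was at 0.43, -0.31, 2.17, 1.60 and 1.90 against -0.63, -1.04, -0.70, -0.57 and -0.88, a difference of 1.93 ± 0.37 (adjusted p = 0.00222), or 2.66 without them. In each of the 3 genes the estradiol group was also called above placebo, by 2.0 in Mmd2, 2.03 in Corin and 1.87 in Dntt. DHT and placebo differed by -0.26, -0.24 and -0.05, not called.

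The same split between animals held in further genes of varied function. Spon1, an extracellular matrix protein, was at -0.68, -0.90, 2.04, 1.73 and 1.98 under estradiol against -1.15 to -0.97 under DHT, a difference of 1.92 ± 0.49 (adjusted p = 0.0192), or 3.0 without animals 33 and 34. Socs2, the feedback inhibitor of growth hormone signalling, was at -0.17, -0.60, 1.61, 1.35 and 1.07 against -1.32 to -0.78, and its 3 probes gave differences of 1.70, 1.59 and 1.28. Mtmr11, a myotubularin-related protein, was at -0.24, -0.39, 1.85, 1.88 and 1.54 against -0.90 to -0.40, a difference of 1.5 ± 0.31 (adjusted p = 0.00364). Fabp4, the fatty acid binding protein of adipocytes and macrophages, reached 2.49, 2.36 and 1.94 in animals 35 to 37 and overlapped with the DHT group through animal 34, at -0.95. Its difference was 2.03 ± 0.45 (adjusted p = 0.00678) and, without animals 33 and 34, 3.28. Tspan8, a tetraspanin used as a bile duct marker, was at -1.12, -1.77, 3.29, 2.59 and 1.39 against -1.80 to -0.94, with a difference of 2.18 ± 0.62 (adjusted p = 0.0404). It was the 1 called gene of 6 measured bile duct markers, where 3.14% of named genes were called higher. The median difference of those 6 markers was -0.06, with 2 higher and 4 lower under estradiol. Stat5a, which encodes a form of STAT5, was at -0.26, -0.57, 1.10, 1.02 and 0.94 against -0.50 to -0.15, a difference of 0.81 ± 0.21 (adjusted p = 0.024). Spon1 was called in 7 of the 10 fits without a single animal, Socs2 in 8, Stat5a in 3 and Tspan8 in 2.

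Other genes of the 15 highest showed smaller gaps within the estradiol group. Miox, the enzyme that opens myo-inositol in its breakdown, was at 0.23, 0.74, 1.79, 1.77 and 1.32 under estradiol and at -0.36, -0.11, -0.63, -0.45 and -0.05 under DHT. It differed by 1.49 ± 0.29 (adjusted p = 0.00266) and was 1.68 above placebo (adjusted p = 0.0027). Ptgds, a prostaglandin D2 synthase, was at 0.06, -0.11, 1.43, 1.93 and 1.04 against -0.84 to -0.40, a difference of 1.5 ± 0.26 (adjusted p = 0.00101). Ly6d, a surface protein of the LY6 family, differed by 1.57 ± 0.32 (adjusted p = 0.00329) and was called below placebo under DHT, by -1.34, with estradiol at 0.24 from placebo. Of the 15 genes, 8 were called above placebo under estradiol and 3 below placebo under DHT. Called in every fit without a single animal were 13 of the 15, the exceptions being Spon1 and Socs2.

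Macrophage genes were higher under estradiol. Of 14 markers of Kupffer cells, the resident macrophages of the liver, and of other macrophages, 13 were measured and 11 were called higher under estradiol, where 3.14% of named genes were. The count was 5 without animal 36, 6 without animal 35 and 7 without DHT animal 51 or 52. Their median difference was 1.02, and 1.58 without animals 33 and 34, where the count stayed at 11 and 6.97% of named genes were called higher. Marco, a scavenger receptor, was at -1.38, -0.05, 2.19, 3.15 and 0.36 under estradiol and at -0.56, -2.0, -1.65, -2.06 and -1.93 under DHT, so the groups overlapped. Its difference was 2.49 ± 0.60 (adjusted p = 0.0128). Adgre1, an adhesion G protein-coupled receptor of macrophages, was at -0.26, -0.60, 1.58, 2.73 and 0.48 against -0.49, -1.19, -1.08, -0.58 and -0.88, a difference of 1.63 ± 0.36 (adjusted p = 0.00766). Csf1r, the receptor of macrophage colony stimulating factor, was at -0.21, -0.27, 1.09, 1.84 and 0.96 against -0.51, -0.94, -0.70, -0.54 and -0.62, with no overlap and a difference of 1.34 ± 0.25 (adjusted p = 0.00177). Animals 35 and 36 were the highest in each of these genes.

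The complement subunits C1qa, C1qb and C1qc, made in the liver by macrophages, differed by 1.17 ± 0.24, 0.51 ± 0.14 and 1.25 ± 0.25. Clec4f, a lectin particular to Kupffer cells, differed by 0.86 ± 0.16 (adjusted p = 0.00216), Cd5l by 1.38 ± 0.30, Vsig4 by 1.02 ± 0.26, Timd4 by 1.02 ± 0.29 and Lyz2, a lysozyme, by 0.60 ± 0.16. A second probe of Timd4 gave 0.15, and one of Vsig4 gave 0.88. Cd163 at 0.49 ± 0.23 and Cd68 at 0.07 ± 0.08 were not called. The mean log2 ratio of the 13 markers was -0.15, -0.26, 1.04, 1.54 and 0.46 in animals 33 to 37, -0.74 to -0.26 in the DHT group and -0.41 to 0.04 with placebo. Only animals 35, 36 and 37 lay above the placebo and DHT ranges. Against placebo, 0 of the 13 were called under estradiol and 0 under DHT, with median differences of 0.715 and -0.391; at an unadjusted p under 0.05 the counts in limma were 12 and 3. In whole liver, more macrophages and more macrophage RNA per cell cannot be told apart.

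The count of 11 macrophage genes was 0 when only these 2 groups entered the fit, and 0 with an index of clock genes as a covariate. That index did not overlap between the groups, so the fit with it cannot tell its part from that of the pellets. Fewer genes of other blood cell lists were called, beside 3.14% of named genes called higher. Of 10 neutrophil markers 0 were called by limma and 6 had an unadjusted p under 0.05. Their mean log2 ratio was 0.445, 0.762 and 0.463 in animals 35 to 37, -0.175 and -0.108 in animals 33 and 34, and -0.249 to 0.0218 under DHT. Without animals 33 and 34, 5 of the 10 were called higher, S100a9 among them, where 6.97% of named genes were. T cell markers had 0 called of 9 and stellate cell markers 0 of 11, with 1 and 3 at an unadjusted p under 0.05 in limma. Called markers of other types were Stab1 (0.36 ± 0.10) of 12 endothelial markers, Cd79b (0.66 ± 0.16) of 6 B cell markers and Il2rb (0.55 ± 0.16) of 8 natural killer cell markers. Among genes outside the marker lists, the B cell chemoattractant Cxcl13 was at 0.05, 0.72, 2.28, 2.83 and 0.37 under estradiol and -0.06, -1.77, -1.21, -1.46 and -1.02 under DHT, a difference of 2.36 ± 0.43 (adjusted p = 0.0014). Rac2, a small GTPase of blood cells, was at -0.39, -0.15, 1.15, 2.22 and 0.60 against -0.93 to -0.46, a difference of 1.35 ± 0.28 (adjusted p = 0.00466). Ctss, a lysosomal protease of antigen presentation, differed by 1.11 ± 0.29 (adjusted p = 0.0228), the 1 called gene of 9 on the list of MHC class II presentation. The macrophage and neutrophil levels were highest in animals 35 to 37, and their part in the other genes high in these animals was not tested.

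**Figure D3:**
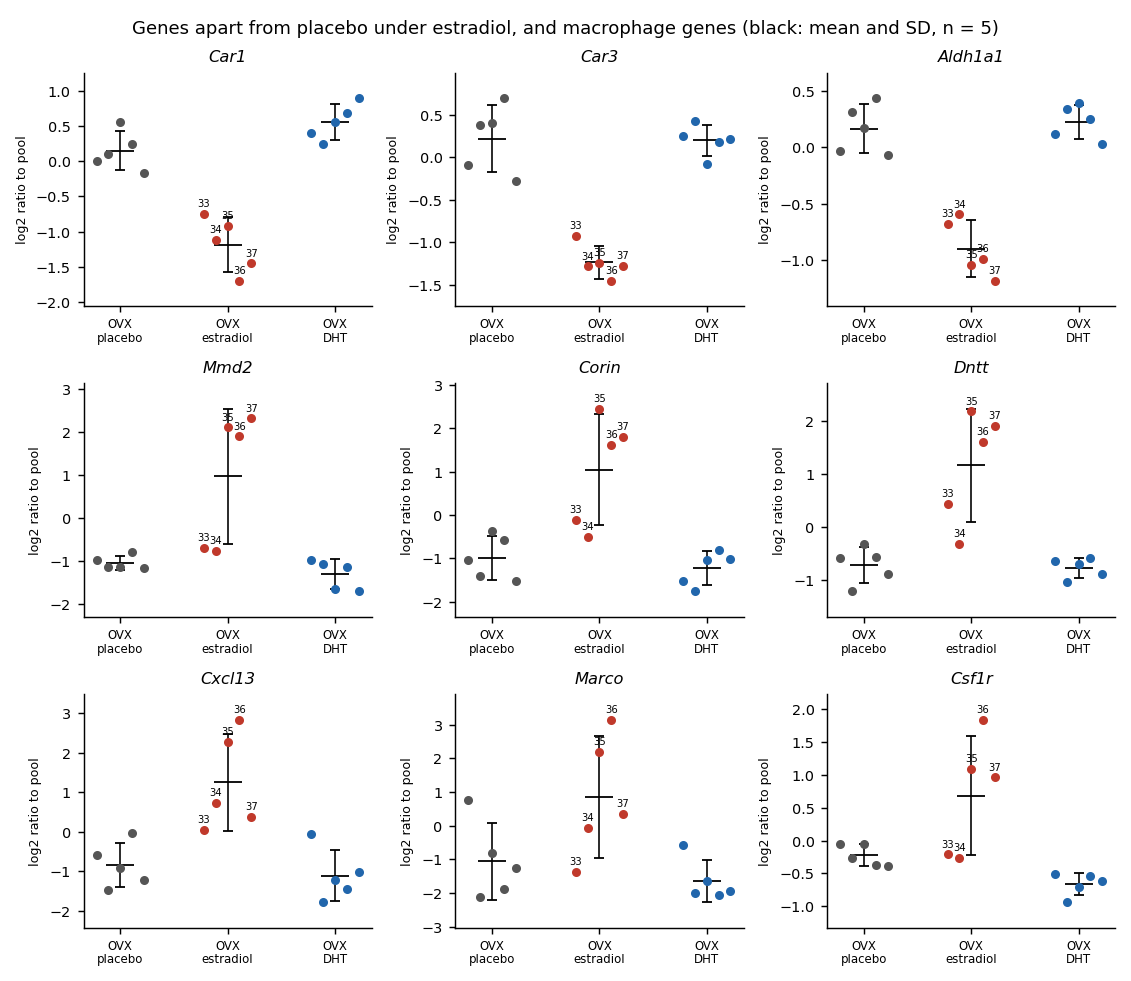
Log2 ratio to the pool (vertical axis) of 9 genes in placebo, estradiol and DHT livers after ovariectomy, 5 livers each; black bars are means with SD and numbers name the estradiol animals. In Car1, Car3 and Aldh1a1 all 5 estradiol livers lie below placebo and DHT; in Mmd2, Corin and Dntt animals 35, 36 and 37 lie above the rest; in Marco and Csf1r animals 35 and 36 are highest.

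Car1, Car3 and Aldh1a1 were lower in all 5 estradiol livers than in any DHT liver. Car1, a cytosolic carbonic anhydrase, was at -0.75, -1.12, -0.92, -1.70 and -1.45 under estradiol and at 0.40, 0.24, 0.55, 0.69 and 0.89 under DHT. With no overlap it had the smallest adjusted p of the named genes, with a difference of -1.74 ± 0.21 (3.35-fold, adjusted p = 2.13e-05). Car3, the carbonic anhydrase of liver, muscle and fat, was at -0.92, -1.28, -1.24, -1.45 and -1.28 against 0.24, 0.42, -0.08, 0.18 and 0.22, a difference of -1.44 ± 0.30 (adjusted p = 0.00496). Aldh1a1, which oxidises retinal to retinoic acid, was at -0.68, -0.59, -1.04, -0.99 and -1.18 against 0.12, 0.34, 0.39, 0.25 and 0.03, a difference of -1.12 ± 0.18 (adjusted p = 0.000481). Its relative Aldh1a7 differed by -0.88 ± 0.19 (adjusted p = 0.0051). Here the estradiol group was the one apart from placebo: the differences from placebo were -1.33 in Car1, -1.46 in Car3 and -1.06 in Aldh1a1, all called, while DHT minus placebo was 0.41, -0.02 and 0.06. Animals 33, 34 and 53 lay with their own groups in these 3 genes. Car1 is also on the list of erythroid markers, of which 2 of 11 were called, both lower (1.78% of named genes were): Car1 and Alas2, the first enzyme of heme synthesis in red cells (-1.05 ± 0.24). The mean log2 ratio of the 11 markers overlapped between the groups, at -0.31 to 0.15 under estradiol and -0.05 to 0.14 under DHT.

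A list of carboxylesterases, which also holds Aadac, had 8 measured genes. Of these 4 were called lower (1.78% of named genes were) and 0 higher, with a median of -0.51. Ces3a, a triacylglycerol hydrolase of the endoplasmic reticulum, lay between -1.25 and -0.27 under estradiol and between -0.39 and 0.77 under DHT and differed by -1.18 ± 0.24 (adjusted p = 0.00416). Ces1e differed by -0.95 ± 0.20, Ces3b by -0.96 ± 0.24 and Aadac, an arylacetamide deacetylase, by -0.59 ± 0.17. Plin4, a lipid droplet coat protein, was at -0.60, -0.78, -1.37, -0.97 and -0.87 against 0.39, 0.89, 0.04, -0.10 and 0.66, a difference of -1.30 ± 0.26 (adjusted p = 0.00266). Of 20 genes of lipid droplets and lipolysis 4 were lower and 1, Fabp4, was higher.

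Most genes of fatty acid and sterol metabolism were not called, and over all named genes 3.14% were called higher and 1.78% lower. Of 24 fatty acid synthesis genes 3 were lower, Elovl3, Elovl6 at -0.89 ± 0.20 (adjusted p = 0.00847) and malic enzyme Me1 at -0.67 ± 0.13 (adjusted p = 0.00288), and 1 was higher, the desaturase Scd2 at 0.55 ± 0.16 (adjusted p = 0.0448). Of 24 genes of fatty acid oxidation and ketone synthesis, the nuclear receptor Ppara (-0.66 ± 0.16) and Cpt2 (-0.39 ± 0.11) were lower and the peroxisomal enzyme Ehhadh (0.78 ± 0.22) was higher. Ehhadh was called in 2 of the 10 fits without a single animal, as was Cpt2. Of 18 genes of cholesterol synthesis and uptake 0 were called by limma (1 at an unadjusted p under 0.05), and 1 of 25 bile acid genes was, the transporter Slco1a1. Of 26 glucose metabolism genes Miox and the insulin receptor substrate Irs2 (1.00 ± 0.30, second probe -0.08) were higher. Of 24 steroid hormone metabolism genes, Cyp17a1 and Sult2a1 were higher and Hsd3b5, Hsd3b2, Cyp2d9 and Hsd3b4 (-0.42 ± 0.09, second probe -0.05) were lower. These include enzymes of both synthesis and inactivation of steroids.

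Over all named genes 3.14% were called higher and 1.78% lower, to be set beside the counts that follow. Among 33 cytochrome P450 genes of foreign compound and retinoid metabolism 3 were higher, Cyp2b13, Cyp2b9 and Cyp2c40, and 4 were lower. The lower ones were Cyp2d9, the retinoic acid hydroxylase Cyp26b1 (-0.68 ± 0.12), Cyp2c54 (-0.92 ± 0.23) and Cyp2b19 (-0.27 ± 0.08, second probe 0.09). Of 37 conjugation and reduction genes, Sult3a1 and the monooxygenase Fmo1 (0.61 ± 0.17) were higher. Aldh1a1, Aldh1a7, Gsta2 (-0.98 ± 0.29) and Ugdh (-0.76 ± 0.20), which makes UDP-glucuronate, were lower. Of 16 solute carriers of organic ions, Slc22a26 and Slc22a27 were higher and Slco1a1 and Slc22a30 (-0.76 ± 0.18) were lower. Acute phase genes had 2 higher of 27, Itih3 (0.78 ± 0.20) and the endotoxin binding protein Lbp (0.42 ± 0.12). Of 19 respiratory chain subunits 2 were lower, Ndufa2 (-0.23 ± 0.06) and Cox7a2 (-0.37 ± 0.11). Without animals 33 and 34 the count was 8 of 19, where 3.57% of named genes were called lower, and without animal 53 as well it was 7. Heme synthesis (8 measured), the unfolded protein response (17) and amino acid and urea metabolism (26) had 0 called genes by limma, with 3, 4 and 6 at an unadjusted p under 0.05.

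**Figure D4:**
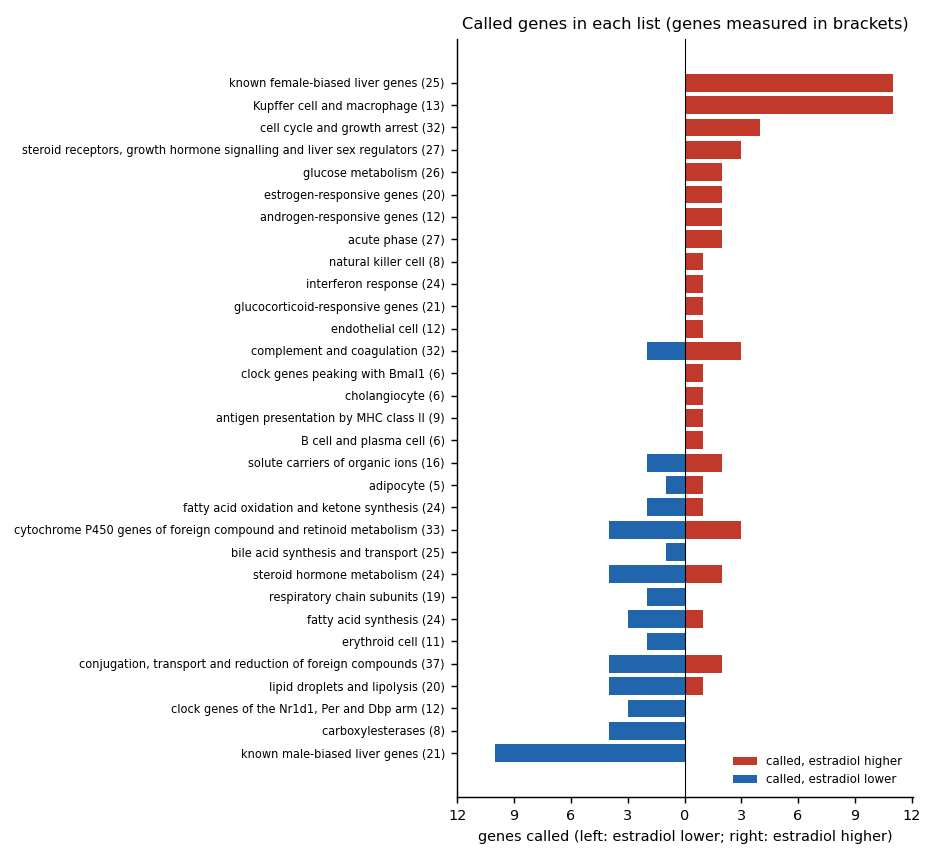
Number of called genes (horizontal axis) in each gene list with at least 1 called gene, higher under estradiol to the right and lower to the left; the number measured stands in brackets. The female-biased and macrophage lists reach 11 to the right, and the male-biased list reaches 10 to the left.

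Genes of hormone reception were mostly not called. Over all named genes 3.14% were called higher under estradiol and 1.78% lower. The lists used here were chosen with earlier results of these data known. The estrogen receptor Esr1 differed by 0.05 ± 0.12 (adjusted p = 0.898), with levels of -0.20 to 0.21 under estradiol and -0.21 to 0.08 under DHT. The growth hormone receptor Ghr was at -0.27, -0.63, 0.51, -0.43 and -0.40 against 0.24, -0.03, 0.16, 0.55 and 0.41, a difference of -0.51 ± 0.23 that was not called (adjusted p = 0.279). Of 27 measured receptors, growth hormone signalling genes and liver sex regulators 3 were called, all higher under estradiol: Cux2, Socs2 and Stat5a. On a list of estrogen-responsive genes 2 of 20 were called, Mmd2 and Socs2, both higher. On a list of androgen-responsive genes 2 of 12 were called and both were higher under estradiol than under DHT. They are Tmprss2, a membrane protease, at 0.98 ± 0.21 (adjusted p = 0.00451), and Cdkn1a, the cell cycle inhibitor p21, at 1.00 ± 0.25 (adjusted p = 0.0186). The median difference over the 12 genes was -0.06, with 5 higher and 7 lower under estradiol. Against placebo 2 of the 12 were called higher under estradiol and 1 under DHT, beside 0.47% and 0.701% of named genes. Tmprss2 was at 0.10 and -0.09 in animals 33 and 34 and at 0.98 to 1.32 in animals 35 to 37, against -0.54 to -0.13 under DHT. Cdkn1a is also the 1 called gene of 21 on a list of glucocorticoid-responsive genes, and was called in 6 of the 10 fits without a single animal. Of 32 genes of cell cycle and growth arrest 4 were higher, Cdkn1a, Btg1 (0.48 ± 0.11, second probe 0.12), the cyclin Ccnd1 (0.72 ± 0.20) and the mitotic kinase Plk1 (0.43 ± 0.12). Without animals 33 and 34 the count was 10 of 32, where 6.97% of named genes were called higher.

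On the lists of circadian clock genes, 1 of 6 that peak with Bmal1 was called higher under estradiol and 3 of 12 of the Nr1d1, Per and Dbp arm were called lower. Of all named genes 3.14% were called higher and 1.78% lower. Arntl, the clock activator BMAL1, was at -0.54, -0.42, 0.11, -0.24 and 0.52 under estradiol and at -0.71, -0.98, -1.04, -1.42 and -0.98 under DHT. The difference was 0.91 ± 0.26 (adjusted p = 0.043) with no overlap. Per2, a repressor of that activator, was at -0.06, -0.07, -0.65, -0.66 and -0.72 against 0.22, 0.81, 0.33, 1.12 and 0.65, a difference of -1.06 ± 0.30 (adjusted p = 0.0353). Usp2, a deubiquitinase that cycles with the clock, differed by -0.61 ± 0.14 (adjusted p = 0.00702) and Nr1d2, the repressor REV-ERB beta, by -0.64 ± 0.17 (second probe 0.02). The other 9 of 12 genes on the list of the Nr1d1, Per and Dbp arm were not called, Nr1d1 itself at 0.18 ± 0.22 (adjusted p = 0.775). A clock index was formed as the mean log2 ratio of Nr1d1, Nr1d2, Per2, Per3, Dbp and Tef minus that of Arntl, Npas2, Clock and Nfil3, so it contains several of the genes above. It was 0.19, 0.30, -0.13, -0.18 and -0.35 in estradiol animals 33 to 37 and 0.36, 0.50, 0.41, 0.84 and 0.64 in the DHT animals, with no overlap. The labels used here do not give the hour of death. With the index as a covariate, 68 of the 96 called genes among those named by rule were no longer called. The index did not overlap between the groups, so this fit cannot tell its part from that of the pellets. Within the estradiol group the index was highest in animals 33 and 34. Sult3a1 (4.61), A1bg (3.75), Hsd3b5 (-3.67), Cyp2d9 (-2.82), Cyp17a1 (2.64) and Car1 (-1.35) kept the call, and Mmd2 (1.61), Corin (1.76), Csf1r (0.96) and Car3 (-0.78) did not. The part of the time of day in these differences was not tested.

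**Figure D5:**
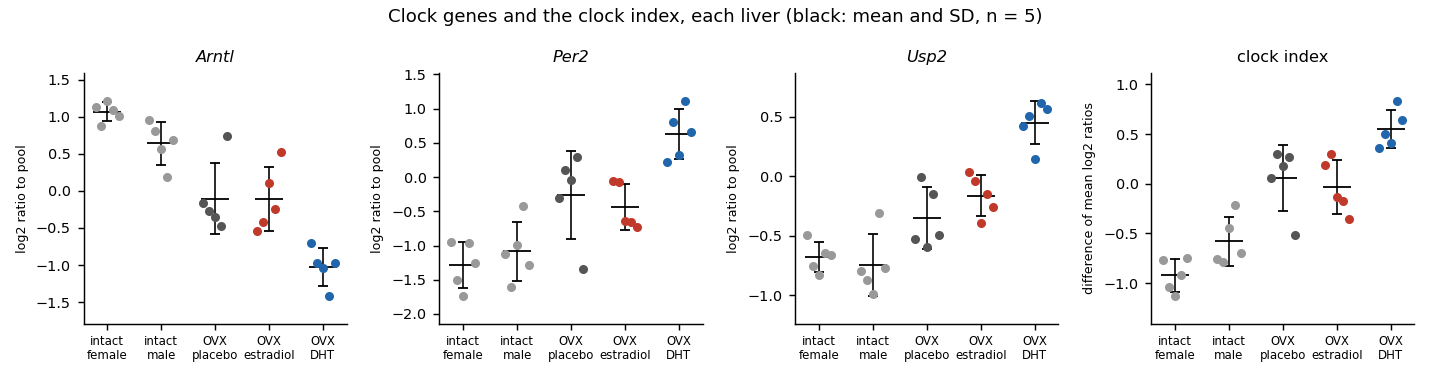
Log2 ratio to the pool of Arntl, Per2 and Usp2, and the clock index (vertical axes), for 5 groups of 5 livers; points are livers and black bars are means with SD. DHT livers lie below estradiol livers in Arntl and above them in Per2, Usp2 and the index, without overlap.

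The same pellets were compared in castrated males, which share no animal with the females. There 167 probes (0.708%) and 0.978% of named genes were called, and of the probes 71 were among the 893 of the females, 7.95% of those and 42.5% of the 167. All 71 had the same sign in both sexes. Leaving out 1 castrated animal at a time gave 48 (without DHT animal 59) to 493 (without DHT animal 63) called probes, and array weights gave 1877. Sult3a1 differed by 4.17 after castration (adjusted p = 0.00067), Cyp17a1 by 3.31, Mmd2 by 2.42, Corin by 2.29, Elovl3 by -2.27 and Nat8 by -1.98, all called, against 4.47, 3.02, 2.27, 2.27, -2.49 and -2.02 after ovariectomy. The castrated estradiol livers were uneven as well. In animals 41, 43, 44, 45 and 46 Mmd2 was at -0.715, 1.64, 2.21, -0.40 and 0.24. Corin was at -1.45, 1.69, 2.43, -0.60 and 0.67 in these animals, and Dntt at -0.83, 1.51, 1.72, -0.62 and -0.10. Sult2a1 differed by -0.37 after castration (adjusted p = 0.8) and by 2.42 after ovariectomy, and the difference between those 2 values, 2.80, was not called (adjusted p = 0.34); without animals 33, 34 and 53 it was 3.66 (adjusted p = 0.00144). Of the macrophage list 0 of 13 were called by limma after castration (1 at an unadjusted p under 0.05), with a median of 0.16.

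A test of the difference between the sexes, the interaction term in limma, called 0 of 23574 probes. The smallest adjusted p was 0.249, and 2671 probes had an unadjusted p under 0.05. The count differed between alternatives: with array weights in limma 1712 probes were called, without animals 33 and 34 it was 371 (1.57%), and without animals 33, 34 and 53 it was 316 (1.34%). Without animals 33 and 34, 9 of 13 macrophage genes were called with a larger estradiol minus DHT difference in females than in males, among them Csf1r (1.52), Cd5l (1.88) and C1qc (1.64). Fabp4 (2.20), Cxcl13 (2.385), Mtmr11 (1.51), Rac2 (1.76) and Stat5a (0.86) were called the same way and Car1 (-1.30) the opposite way. Of the 25 female-biased and 21 male-biased genes 0 were called in that fit. Without animals 33, 34 and 53, 1 gene of each list was called, Sult2a1 (3.66, adjusted p = 0.00144) and Cyp2d9 (-2.11, adjusted p = 0.00484), and Cxcl13 (2.30, adjusted p = 0.0646) was not. With all 10 females the same values were 0.90 in Csf1r, 1.21 in Cd5l, 1.12 in C1qc, 0.96 in Fabp4 and 1.81 in Cxcl13, none called. Leaving out these animals was chosen after the data were seen. Without animals 33 and 34, the estradiol livers with the lowest macrophage means were gone from the female side only. Castrated males with estradiol were uneven too, and all were kept. Their Csf1r was at -0.36, 1.03, 0.51, -0.26 and -0.01 in animals 41, 43, 44, 45 and 46. These counts therefore cannot separate a difference between the sexes from the choice of animals.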

How the data were processed

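Liver RNA of 40 mice was read on 40 arrays of 2 colours, per the labels with the liver in Cy5, a pool of equal parts of all samples in Cy3, and no dye swap. The authors deposited log10 ratios of liver to pool; background correction and normalization are not given in the sources used here. Values end at 2 on the log10 scale (100-fold), which 29 values on 16 probes reached. Ratios were converted to log2 and fitted in limma 3.58.1 (R 4.3.3, lmFit and eBayes) as 8 group means of 5 animals, with Benjamini-Hochberg adjustment over 23574 probes and a two-sided threshold of 0.05. The fit was tested on simulated data. P-values and SE rest on the spread between animals within groups, pooled over all 8 groups. For a gene whose spread is larger in the 2 groups compared, they understate it. The 5 arrays a group limit the precision.

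The platform annotation gave 1 symbol for 13665 probes, several for 48 and none for 9861. Through RefSeq (GRCm38.p6) 12662 probes were named, of 10842 genes, and 1157 genes with over 1 probe were read from the probe of largest SD. Genes named are the 15 highest and 15 lowest called differences without overlap (predicted genes left out), called list members and a few preset genes; 1 gene that met this rule is not reported here. Members and lists were chosen with earlier results of these data known. Alternatives were other scalings, weights, filters, covariates and animals left out. Tables and figures used Python 3.11.15, numpy 2.4.6, pandas 2.3.3, scipy 1.17.1 and matplotlib 3.10.9.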

Additional observations from a re-analysis of the deposited data

Results flagged for a closer look

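The values of the named genes and list means in the 2 groups make 206 sets of 5 values. In 23 of them a single animal lay far from the other 4, by a gap over 0.71 of the range. Chance gives about 1 in 20 for independent sets, and these share the same livers and are not independent. DHT animal 53 was that animal in 15 of the 23. It was the highest of the DHT livers in Cyp17a1 (log2 ratio 0.126), Sult3a1 (0.949), Slc22a26 (0.439), Slc22a27 (0.949), Hao2 (1.36), Cyp2b13 (1.14), Sult2a1 (1.9) and Cyp2b9 (0.76), and in the mean of the female-biased list (0.486). It was the lowest in Nat8 (-2.39), Cyp4a12a (-1.4), Nudt7 (-0.484), Cyp2d9 (-3.44) and Alas2 (-0.794), and in the mean of the male-biased list (-1.21).

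DHT animal 50 was the highest of its group in Nr1d1 (0.5), Lbp (0.171) and Marco (-0.556), and DHT animal 52 in Cpt2 (0.218). Estradiol animal 35 was the lowest of its group in Fitm1 (-1.98) and the highest in Ugdh (0.262) and Slc22a30 (0.0645). Estradiol animal 33 was the highest in Hao2 (0.907).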

How the results depend on the processing

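The 893 probes called between estradiol and DHT became 270 with only these groups in the fit, 3075 with array weights, 170 with the clock index as covariate, 7 in a test against a fold of 1.5, 1982 without animals 33 and 34, and 1975 without animals 33, 34 and 53; the last pair of alternatives was chosen after seeing the data. Leaving out each animal gave 281 to 1523. Quantile normalization (1215), median centring (816), robust eBayes (892), the upper part of probes by SD (977) and limited values left out (901) stayed within 1.5 times. The 0 probes of the difference between the sexes became 1712 with array weights, 371 without animals 33 and 34, 316 without animal 53 too, and 0 to 6 without each animal. Estradiol against placebo (149) gave 1092 with array weights, 1608 without animals 33 and 34 and 22 to 902 without each animal. DHT against placebo (271) gave 757 after quantile normalization, 1298 with array weights and 89 to 443 without each animal. Estradiol against DHT in castrated males (167) gave 1877 with array weights and 48 to 493. The intact sexes (2048) gave 5443 with array weights, 1358 over the upper part of probes by SD and 1455 to 2604. The female-biased count of 11 was 3 with only these groups, 2 against a fold of 1.5 and 8 to 13 without each animal. The male-biased count of 10 was 1 against a fold of 1.5 and 9 to 12. The macrophage count of 11 was 0 with only these groups, with the clock index and against a fold of 1.5, and 5 to 11 without each animal. Apart from fewer animals or probes in a fit, the cause was not tested. These counts have no sign, so a reversal could not show in them. Some uncalled estimates of the difference between the sexes changed sign with animals left out. In Mmd2 that estimate went from -0.15 to 0.99 without animals 33 and 34. Of the 96 called genes named by rule, 68 lost the call with the clock index, 55 with only these groups and 92 against a fold of 1.5. No paired analysis was possible because each animal has its own number and the groups share none.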
